A study of Mus musculus with 12 samples.

Results

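The core circadian clock genes were described in 6 mouse liver tumors, each beside non-tumoral liver of its own mouse. They were listed by symbol and by no cutoff on measured values, although earlier results of these data were known. They are the activators Arntl, Clock, and Npas2, the repressors Per1, Per2, Per3, Cry1, and Cry2, and the output factors Dbp and Tef. All 10 are among the 24421 gene symbols of the count files, and all 10 passed the filter on low counts that left 15182 genes for testing.

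Tumors and livers came from aged mice kept on a standard diet and a regular light and dark cycle. In p21+/Tert mice, Tert, the catalytic subunit of telomerase, is expressed from the promoter of Cdkn1a (p21), so that its expression follows the activity of that promoter, and in p21+/TertCi mice a catalytically inactive Tert is expressed in the same way. The p21+/Tert group had 4 tumors, the adenoma T-HCA992 and T-HCC662, T-HCC663, and T-HCC941, and the p21+/TertCi group had 2, TCi-HCC981 and TCi-HCA984. HCC in a name stands for hepatocellular carcinoma and HCA for adenoma, but the histology of the study diagnosed the tumor of the T-HCC663 mouse as an adenoma. Each tumor was set against the liver of its own mouse, since both share the time of sampling, and 5 of these pairs are named by the labels. The liver paired with T-HCC662 carries another animal number in its label, but its deposited file is named for the mouse of T-HCC662, and the other 3 p21+/Tert livers belong to other mice. Every mouse carried a Tert or TertCi allele, no wild-type tissue was analysed here, and the hour of the day at sampling was not given in the sources used here. Each library is 1 piece of bulk tissue, in which fewer cells of a type and less RNA per cell cannot be told apart.

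In liver and most other tissues, the dimer of ARNTL (BMAL1) with CLOCK or its relative NPAS2 binds E-boxes and activates the Per and Cry genes, whose proteins return to repress it, so that the RNA of these genes rises and falls once a day. The PAR bZIP factors DBP and TEF are driven by the same dimer and act on D-boxes of metabolic genes, whereas the nuclear receptors REV-ERB (encoded by Nr1d1 and Nr1d2) act as repressors on elements of Arntl, Clock, and Npas2. In a liver sampled at 1 time, high Dbp, Per3, and Tef with low Arntl and Npas2 belong to one side of the daily cycle and the reverse to the other side.

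The elements through which these genes drive each other were looked up in the RefSeq windows of 250 bases before to 50 after a transcription start (GRCm38.p6), which covered 9 of the 10 genes with 14 windows, none of them for Per2. The letters searched on both strands were CACGTG (E-box), CACGTT (E-prime box), TTATGTAA or TTACGTAA (D-box), and TAGGTCA or TGGGTCA (REV-ERB element). An E-box was found for Per1, Cry1, and Tef, an E-prime box for Cry1 and Cry2, a D-box for Per3, and a REV-ERB element for Arntl. Of the 14 windows, 4 held an E-box, 2 an E-prime box, 1 a D-box, and 1 a REV-ERB element. One match of each of these genes is printed below from 5′ to 3′ on the strand of its gene, with the matched letters in capitals.
Arntl (chr7:113207530-113207559, plus strand): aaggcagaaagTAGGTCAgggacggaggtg
Per1 (chr11:69098771-69098800, plus strand): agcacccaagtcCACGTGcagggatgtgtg
Per3 (chr4:151044852-151044881, minus strand): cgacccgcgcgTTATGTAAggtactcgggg
Cry1 (chr10:85185097-85185126, minus strand): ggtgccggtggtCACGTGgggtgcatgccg
Cry2 (chr2:92434218-92434247, minus strand): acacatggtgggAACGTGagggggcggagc
Tef (chr15:81802534-81802563, plus strand): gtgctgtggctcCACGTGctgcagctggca
Tef has an E-box in each of its 2 windows, and Per3 has 2 D-boxes in its only window. Of all 32851 promoter windows, 7.15% hold the E-box letters, 4.68% the E-prime box, 1.06% the D-box, and 6.45% the REV-ERB element, so a match describes the window and is no evidence of binding. No match was found in the windows of Clock, Npas2, and Dbp, which says only that these letters are not in these windows.

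Levels are given as counts scaled to 1000000 per library after scaling of the libraries by edgeR's TMM method (CPM), and differences as log2 fold changes of tumor over own liver with their standard error (SE) from edgeR's quasi-likelihood test with the mouse as a block. The threshold was 0.05 after Benjamini-Hochberg adjustment over all genes tested. The libraries held from 14571716 to 26170661 counts on genes, so that 3 counts, taken as the floor of detection, corresponded to between 0.127 and 0.231 CPM in a liver, and confidence intervals and floors cover counting error only. The labels name no sequencing run. Titles of the libraries of the T-HCC662, T-HCC663, and T-HCC941 mice begin alike, and those of the other mice take other forms. What these forms stand for was not given, and they cannot be told apart from differences between the mice. The summed markers of hepatocytes (Alb, Apoa1, Apob, Ttr, Trf, and Fgb) lay between 51676 and 73864 CPM in the livers, which carry the liver label, and between 27303 and 136685 CPM in the tumors.

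Across the 6 mice, 2 of the clock genes passed the threshold in tumors against own livers. Npas2 rose and Tef fell, and the sign was the same in 6 of 6 mice for both, although Tef in TCi-HCA984 was at 0.997 of its liver. Of all genes tested, 15.5% were called in this comparison (8.65% higher and 6.87% lower), so that 2 of 10 is near the background. Being higher in every tumor held for 10.5% of all genes and being lower in every tumor for 11.5%. With DESeq2 in place of edgeR, 4 of the 10 were called (Npas2, Tef, Cry2, and Dbp), where 24.8% of all genes were, and without the mouse as a block 0 of the 10 were, where 11% of all genes were. The median log2 fold change was -0.10 over the 10 clock genes and -0.01 over all genes tested. In the following, values stand in the order of the mice with T-HCC662, T-HCC663, T-HCC941, the adenoma T-HCA992, TCi-HCC981, and the adenoma TCi-HCA984, and a liver is named by the tumor of its mouse.

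Npas2 (chr1:39193731-39363236, plus strand), the relative of Clock that can take its place beside ARNTL, was at 0, 0.192, 0.694, 11.8, 4.73, and 1.09 CPM in the livers. In the tumors it was at 0.358, 0.432, 9.38, 34.5, 15.5, and 4.53 CPM. Every tumor was above its own liver, although the groups overlapped because the T-HCA992 liver exceeded 4 of the tumors. The increase was 13.5-fold in T-HCC941, 4.16-fold in TCi-HCA984, 3.27-fold in TCi-HCC981, and 2.92-fold in T-HCA992. In the remaining pair of tumors it rests on few reads. T-HCC662 held 8 counts against 0 in its liver, which is 1.67-fold if the liver is set to the floor of 3 counts. The lower end of its 95% interval was 1.07-fold. T-HCC663 held 10 counts against 3 (2.25-fold, 95% interval 0.579 to 12.7). The fitted log2 fold change was 2.15 (adjusted p = 0.0126, SE 0.40), and it passed the threshold with each mouse left out in turn (adjusted p from 0.0163 to 0.0408, log2 fold change from 1.81 to 2.38). Without the mouse as a block, that is, against the full spread between mice, it was 1.79 with an adjusted p of 0.368.

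Arntl (chr7:113207465-113314126, plus strand), the obligate partner of CLOCK and NPAS2, stood at 0.929, 1.28, 2.78, 27.4, 13.7, and 9.66 CPM in the livers and at 1.3, 1.81, 12.1, 30.5, 33.5, and 9.52 CPM in the tumors. T-HCC941 and TCi-HCC981 were 4.37-fold and 2.44-fold above their livers, and the other 4 pairs differed by less than 1.5-fold. It was higher in 5 of 6 tumors, as were 24.4% of all genes in at least 5. The groups overlapped widely, and the log2 fold change of 0.75 (adjusted p = 0.122, SE 0.30) did not pass the threshold. Clock (chr5:76209868-76304792, minus strand) was the steadiest of the 10, at 28.4, 25.9, 39.9, 57.9, 36, and 61.4 CPM in the livers and 28.9, 29.4, 47.8, 42.8, 33.8, and 52.7 CPM in the tumors. It was higher in 3 tumors and lower in 3, and its fitted change was -0.05 (adjusted p = 0.832, SE 0.13).

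Among the repressors, Per3 (chr4:151003652-151044665, minus strand), which is less needed for the rhythm itself than Per1 and Per2, was at 99.9, 90.8, 27.8, 3.62, 13.7, and 32.2 CPM in the livers and at 37, 34.2, 10.9, 5.34, 4.43, and 45.8 CPM in the tumors. In T-HCC662, T-HCC663, T-HCC941, and TCi-HCC981 it was at 0.371, 0.376, 0.393, and 0.323 of the level of the own liver, and in T-HCA992 and TCi-HCA984 it was 1.47-fold and 1.42-fold higher. The fit over all mice gave -0.82 (adjusted p = 0.147, SE 0.35).

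Cry2 (chr2:92403646-92434043, minus strand), which together with Cry1 encodes the cryptochromes that repress the activating dimer, was at 73.9, 78.7, 57.1, 32.5, 38.5, and 31.5 CPM in the livers and at 46.4, 37.3, 25.1, 27.5, 9.82, and 42.3 CPM in the tumors. It was lower in 5 of 6 tumors (25.8% of all genes were lower in at least 5), most in TCi-HCC981 (0.255 of the own liver), and 1.34-fold higher in TCi-HCA984. Its fitted change of -0.78 (adjusted p = 0.0984, SE 0.29) missed the threshold, and without the TCi-HCA984 mouse it was -0.99 (adjusted p = 0.049). Cry1 (chr10:85131700-85185064, minus strand) was at 4.5, 5.45, 4.01, 20.9, 7.01, and 6.49 CPM in the livers and 3.09, 1.68, 7.79, 29.9, 15.6, and 7.11 CPM in the tumors. It was lower than in the own liver in T-HCC662 and T-HCC663 and higher in the other 4 tumors, and the fit over all mice gave 0.13 (adjusted p = 0.836, SE 0.37).

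Per1 (chr11:69095217-69109960, plus strand), which also responds quickly to hormones and feeding, was at 45.2, 67, 21.8, 18.2, 9.62, and 74.4 CPM in the livers and 82.3, 52, 12.9, 18.6, 5.04, and 82.8 CPM in the tumors. Per2 (chr1:91415982-91459324, minus strand), a scaffold of the repressor complex, was at 52.3, 42.4, 16.5, 20.3, 20.4, and 55.8 CPM in the livers and 42, 37.2, 26.6, 33.7, 16, and 62.9 CPM in the tumors. Both were higher in 3 tumors and lower in 3. Their fitted changes were -0.16 (adjusted p = 0.673, SE 0.23) for Per1 and 0.12 (adjusted p = 0.689, SE 0.18) for Per2.

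Tef (chr15:81802421-81826863, plus strand), 1 of the 3 PAR bZIP factors with Dbp and Hlf, was at 530, 490, 281, 57.9, 124, and 188 CPM in the livers. In the tumors it was at 374, 263, 86.5, 23.5, 36.8, and 188 CPM. Except for TCi-HCA984, the tumors lay between 0.298 and 0.706 of their livers, whereas TCi-HCA984 was at 0.997 of its liver (95% interval 0.952 to 1.05), and the groups overlapped. The log2 fold change was -1.03 (adjusted p = 0.0344, SE 0.26). This call was lost without the mouse of T-HCC663, of T-HCC941, of T-HCA992, or of TCi-HCC981 (adjusted p = 0.0612, 0.105, 0.103, and 0.0919), and without the mouse as a block the value was -0.78 with an adjusted p of 0.499.

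Dbp (chr7:45705088-45710203, plus strand), the output factor with the strongest daily rhythm in liver, was at 467, 412, 185, 4.84, 39.1, and 50.1 CPM in the livers and at 298, 131, 44.8, 3.58, 7.38, and 97.2 CPM in the tumors. It was lower in 5 tumors, down to 0.189 of the own liver in TCi-HCC981 and 0.242 in T-HCC941, and 1.94-fold higher in TCi-HCA984. Its fitted change of -1.07 (adjusted p = 0.13, SE 0.43) did not pass the threshold, and without the TCi-HCA984 mouse it was -1.41 (adjusted p = 0.0404). Exons of Dbp share 539 bases with those of Sphk2 on the opposite strand, which was at 87.9 to 307 CPM in the livers. Since it is not given whether counting used strand, reads of this stretch cannot be told apart. Cry2 shares 295 bases with D930015M05Rik in the same manner, at 0.718 to 2.43 CPM in the livers.

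**Figure D1:**
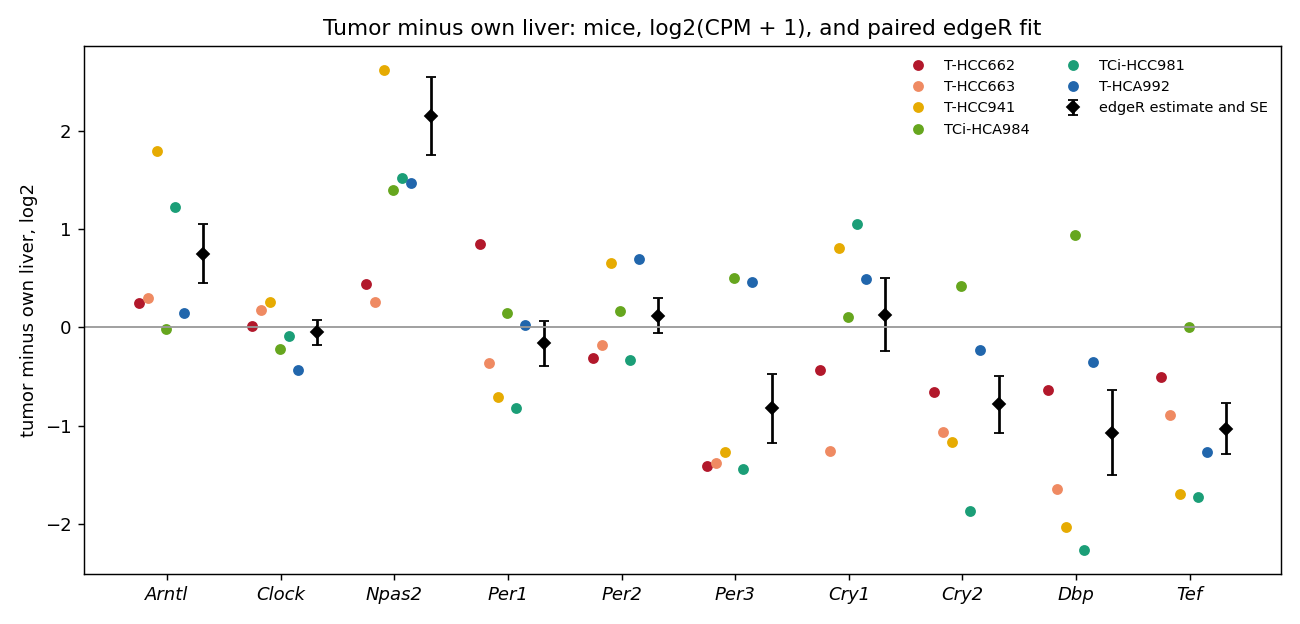
The vertical axis is tumor minus own liver on the log2 scale for each clock gene. Colored points are the 6 mice on log2(CPM + 1), and the black diamond with its bar is the edgeR estimate with its SE, which for Npas2 lies above most points because adding 1 CPM reduces the differences of low levels. All points of Npas2 lie above 0, those of Tef lie at or below 0, and those of the other 8 genes lie on both sides.

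Tumor by tumor, the clock genes moved most in T-HCC941 and TCi-HCC981. The median absolute difference from the own liver over the 10 genes, on log2(CPM + 1), was 1.21 in T-HCC941 and 1.33 in TCi-HCC981, where the median over all genes tested was 0.51 and 0.43. It was 0.47 against 0.39 in T-HCC662, 0.63 against 0.42 in T-HCC663, and 0.44 against 0.37 in T-HCA992. In TCi-HCA984 it was 0.19 for the clock genes and 0.33 for all genes, and this adenoma was the tumor in which 7 of the 10 were higher than in the liver, against 3 to 6 in the other tumors.

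Most genes took the same direction in T-HCC941 and TCi-HCC981. Arntl, Npas2, and Cry1 were higher in both tumors and Per1, Per3, Cry2, Dbp, and Tef were lower, whereas Clock and Per2 were higher in T-HCC941 and lower in TCi-HCC981. By direction alone, T-HCC662 and T-HCC663 shared higher Arntl, Clock, and Npas2 and lower Per2, Per3, Cry1, Cry2, Dbp, and Tef. They differed in Per1, which was at 1.82-fold the liver level in T-HCC662 and at 0.776 in T-HCC663. Most of these rises of the activators lay within counting error. For Arntl the exact binomial interval of the fold was 0.703 to 2.93 in T-HCC662 and 0.813 to 2.55 in T-HCC663. It was 0.895 to 1.15 for Clock in T-HCC662 and 0.579 to 12.7 for Npas2 in T-HCC663. It reached from 1 to 1.29 for Clock in T-HCC663 and began at 1.07 for Npas2 in T-HCC662. T-HCA992 had Npas2 2.92-fold higher, Per2 1.66-fold higher, and Tef at 0.406 of the liver, with Arntl, Per1, Cry2, and Dbp within 1.4-fold of it.

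The spread between mice exceeded most of these differences. Dbp varied 96.4-fold over the 6 livers, Arntl 29.6-fold, Per3 27.6-fold, and Tef 9.16-fold, whereas Clock varied 2.37-fold. The SD of log2(CPM + 1) over the livers had a median of 1.17 for the 10 clock genes and of 0.32 for all genes tested. Ranked among all genes tested, the SD of Dbp was at the 99.8th percentile, that of Per3 at 99.5, Arntl at 99.4, Npas2 at 99.2, Tef at 98.5, and Per1 at 97.9. Cry1, Per2, Cry2, and Clock were at 92.6, 92.2, 84.8, and 78.8.

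Pairing removed part of this spread. The SD of the difference between tumor and own liver was below the SD over the livers in 8 of the 10 clock genes, the exceptions being Cry1 and Cry2, and in 25.1% of all genes tested. For Dbp the SD fell from 2.42 over the livers to 1.21 for the paired difference, and for Arntl from 1.58 to 0.73. Over all genes tested the medians were 0.32 over the livers and 0.45 for the paired difference. All 10 clock genes had a larger SD over the livers than most genes tested, and they were not compared with genes of a like SD.

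**Figure D2:**
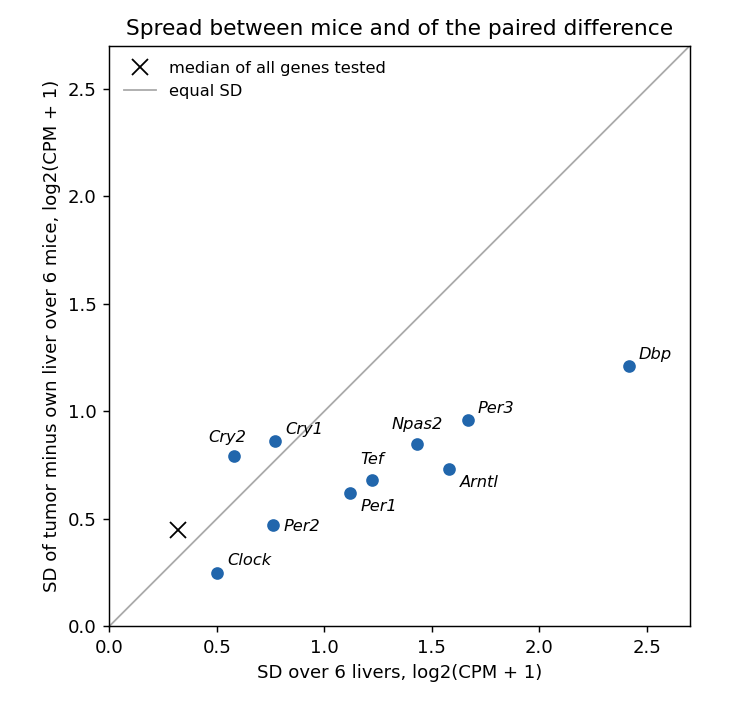
The horizontal axis is the SD over the 6 livers and the vertical axis the SD of tumor minus own liver over the 6 mice, both on log2(CPM + 1), with 1 point per clock gene, a cross at the medians of all genes tested, and a gray line of equal SD. Dbp, Per3, Arntl, Npas2, Tef, Per1, Per2, and Clock lie below the line, and Cry1 and Cry2 lie above it.

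The order of the mice was largely kept in the tumors. Across the 6 mice, the tumor level and the level of the own liver on log2(CPM + 1) had a Pearson's r of 0.94 for Per1, 0.91 for Npas2 and Tef, 0.90 for Arntl, and 0.87 for Dbp (two-sided exact permutation test, p from 0.0125 to 0.0194, adjusted p = 0.0389 for each over the 10 genes). Spearman's rho for these 5 was 0.89 or 0.94 (exact permutation test, adjusted p = 0.0556 for each). The share of all genes tested with such an r is not given, so these values do not set the clock genes apart from other genes. Without the 2 mice farthest from the median of the liver levels, r was 0.84 for Per1, 0.85 for Npas2, 0.77 for Tef, 0.83 for Arntl, and 0.62 for Dbp, over 4 mice. For Clock, Per3, Per2, Cry1, and Cry2 r was 0.88, 0.82, 0.78, 0.76, and 0.35, and none of these passed the threshold (exact permutation test, adjusted p from 0.0532 to 0.557). The mice of T-HCC662 and T-HCC663 were at the high end of Dbp and the low end of Arntl in both tissues, and that of T-HCA992 was at the low end of Dbp in both. For Arntl, Npas2, Cry1, Cry2, Dbp, and Tef, the livers of the T-HCC662, T-HCC663, and T-HCC941 mice did not overlap with those of the other mice. The forms of the library titles divide the mice in the same way, so an order of the mice and a difference between title forms cannot be told apart.

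**Figure D3:**
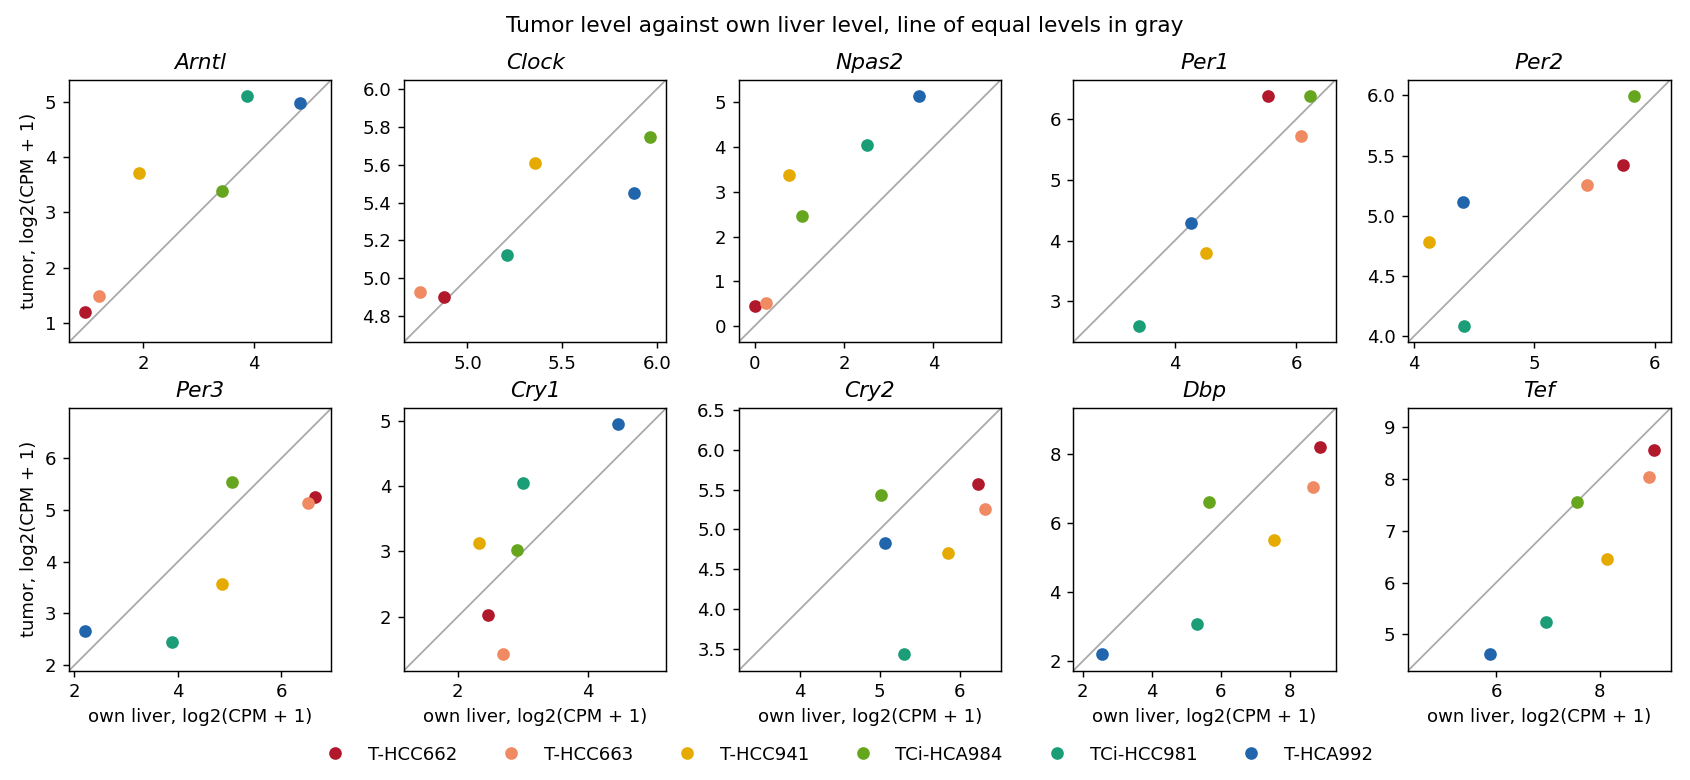
Each panel is 1 clock gene, with the level in the own liver on the horizontal axis and that in the tumor on the vertical axis, both on log2(CPM + 1), 1 colored point per mouse, and a gray line of equal levels. Points of Arntl, Npas2, Per1, Dbp, and Tef climb with the liver level, and those of Cry2 do not.

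Some of the genes ranked the mice alike, a relation that was chosen after the values were seen. Over the 6 livers, r with Dbp on log2(CPM + 1) was 0.99 for Tef and 0.96 for Per3, and -0.98 for Arntl, -0.96 for Npas2, and -0.90 for Cry1 (two-sided exact permutation test, adjusted p from 0.00417 to 0.0275 over 9 genes). The livers ranked by Tef in the same order as by Dbp and by Arntl and Npas2 in exactly the reverse order, and rho was 0.94 for Per3 and -0.83 for Cry1, with adjusted p from 0.00833 to 0.105 in the exact permutation test. Without the livers of T-HCC662 and T-HCA992, r was 0.97 for Tef, 0.84 for Per3, -0.84 for Npas2, and -0.68 for Cry1, and no weaker for Arntl. Over the 6 tumors, r with Dbp was 0.99 for Tef, 0.93 for Per3, -0.93 for Arntl, -0.94 for Npas2, and -0.92 for Cry1 (exact permutation test, adjusted p from 0.0125 to 0.0325), and without T-HCA992 and TCi-HCC981 it was 0.97, 0.72, -0.88, -0.89, and -0.66. The tumors are of the same mice as the livers, so these are not independent sets. How many of all genes tested have such an r with Dbp in either tissue is not given, so a high r is not shown to be particular to clock genes. The order of the livers by Dbp also follows the forms of the library titles. With Cry2, Clock, Per1, and Per2, Dbp had an r of 0.90, -0.80, 0.51, and 0.45 in the livers (exact permutation test, adjusted p = 0.0354, 0.0786, 0.333, and 0.365). In the tumors these values were 0.73, -0.29, 0.80, and 0.60, and none of them passed the threshold (exact permutation test, adjusted p = 0.113, 0.521, 0.112, and 0.242).

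**Figure D4:**
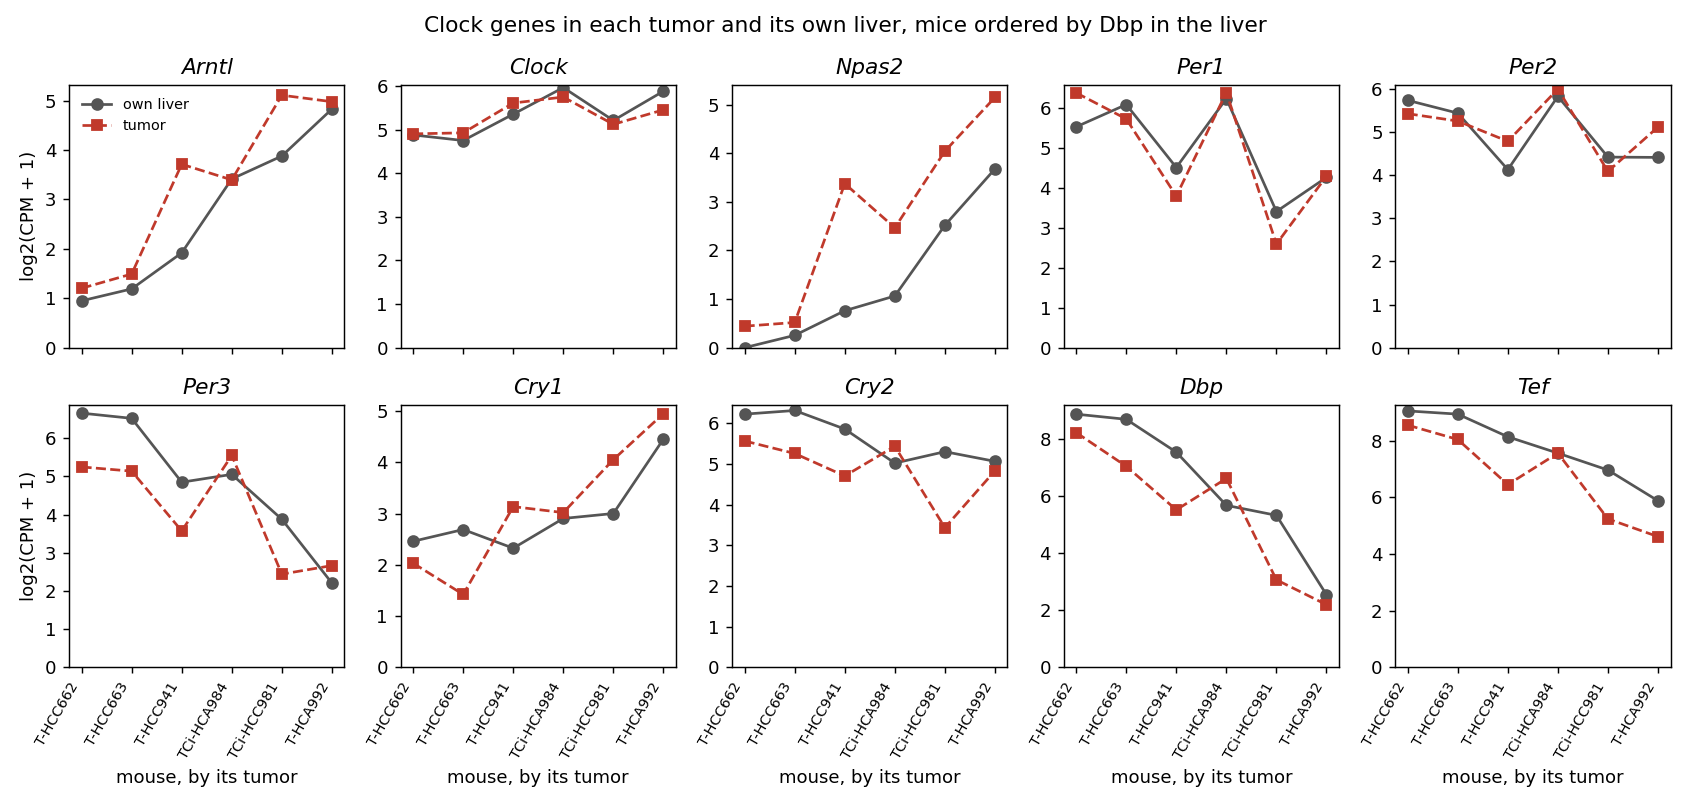
Each panel is 1 clock gene on log2(CPM + 1), with the mice placed from the highest to the lowest Dbp of the liver, gray circles for livers, and red squares for tumors, and lines only to guide the eye. From left to right Dbp, Tef, and Per3 tend to descend and Arntl, Npas2, and Cry1 to climb in both tissues, with TCi-HCA984 above the course of the other tumors for Dbp, Per3, and Cry2.

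Among all other genes tested, those most like Arntl over the 12 libraries were Med24, Loxl4, Lgals3bp, Leo1, and 4930549G23Rik, with r from 0.924 to 0.916 on log2(CPM + 1), and those most like Dbp were Hmgb1 with 0.958, Smim20 with 0.948, Zfp639 with 0.941, and Mir8099-2 and Mir8099-1 with 0.929. The 2 Mir8099 symbols had the same range of levels in both tissues and may share reads. Within the clock genes, r was 0.941 between Arntl and Npas2 and 0.973 between Dbp and Tef, and -0.957 between Arntl and Dbp. Libraries of 1 mouse are not independent, so these values are descriptions.

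Compared per kb of exon, Dbp was the highest in the livers, with a mean of 64.5 CPM per kb, followed by Tef with 35.4, Cry2 with 8.23, Per1 with 6.99, Per2 with 5.91, Per3 with 4.65, Clock with 3.03, Cry1 with 2.41, Arntl with 1.24, and Npas2 with 0.644. Except between Tef and Cry2, neighbors in this order differed by less than the larger of their SD over the livers, which for Dbp was 201 CPM around a mean of 193 CPM. In the tumors the means were 32.4 CPM per kb for Dbp, 20.6 for Tef, 7.5 for Per1, 6.22 for Per2, 4.97 for Cry2, 3.25 for Cry1, 2.86 for Clock, 2.39 for Per3, 2.25 for Npas2, and 1.97 for Arntl, so that below Tef the order was not that of the livers.

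Within p21+/Tert mice, 1 of the clock genes was called, where 8.61% of all genes tested were called (5.17% higher and 3.44% lower). This was Npas2, with a log2 fold change of 2.38 (adjusted p = 0.0413, SE 0.55). It was higher in 4 of 4 tumors, but missed the threshold with any mouse of the 6 left out (adjusted p from 0.0673 to 0.125). Tef gave -1.10 (adjusted p = 0.0851, SE 0.33), lower in 4 of 4 tumors, and was called with Npas2 by DESeq2 (adjusted p = 0.00832), where 18% of all genes were. Within p21+/TertCi mice, with 2 tumors, edgeR called 0% of all genes, none of them a clock gene, while 14.6% had an unadjusted p under 0.05 and DESeq2 called 4.87%. Npas2 was higher in both (1.87, adjusted p = 0.274, SE 0.62). Cry1 was also higher and Clock and Tef lower in both tumors, whereas the other 6 genes took opposite directions, with Dbp at 0.189 of the liver in TCi-HCC981 and 1.94-fold higher in TCi-HCA984.

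The tumor effect was not shown to differ between the genotypes for any clock gene. The difference, p21+/Tert minus p21+/TertCi, was 0.51 (SE 0.80) for Npas2, -0.23 (SE 0.58) for Tef, -0.51 (SE 1.00) for Dbp, and -0.80 (SE 0.76) for Cry1, with an adjusted p from 0.921 to 0.998 over the 10 genes. In this comparison edgeR called 0% of all genes, with 5.2% at an unadjusted p under 0.05, and DESeq2 called 0.435%. In simulated data, with the spread of the fit giving all tumors the same effect, edgeR recovered 0 of 200 genes changed by 2 on the log2 scale. The calls in this comparison do not show that the effects were alike.

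T-HCC662 and T-HCC663 carry Ctnnb1 mutations according to the exome sequencing of the study, and their levels were set beside those of the other 4 tumors. The ranges of the 2 and the 4 tumors did not overlap for 6 of the 10 clock genes, where this was true of 37.3% of all genes tested, and they overlapped for Per1, Per2, Per3, and Cry2. Arntl was at 1.3 and 1.81 CPM against 9.52 to 33.5 CPM, Npas2 at 0.358 and 0.432 against 4.53 to 34.5, and Clock at 28.9 and 29.4 against 33.8 to 52.7. Cry1 was lower too, at 3.09 and 1.68 CPM against 7.11 to 29.9, whereas Dbp, at 298 and 131 CPM against 3.58 to 97.2, and Tef, at 374 and 263 CPM against 23.5 to 188, were higher.

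The livers of these mice were compared in the same way. Their ranges did not overlap with those of the other 4 livers for 7 of the 10 clock genes, against 16.8% of all genes tested, and for 5 genes (Arntl, Clock, Npas2, Dbp, and Tef) neither the tumors nor the livers overlapped, against 6.94% of all genes. Arntl, for instance, was at 0.929 and 1.28 CPM in the T-HCC662 and T-HCC663 livers and at 2.78 to 27.4 CPM in the other 4, and Dbp was at 467 and 412 CPM against 4.84 to 185. For these genes the mouse and the tumor class cannot be told apart by tumor levels.

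Relative to the own liver, 0 of the 10 clock genes differed between the Ctnnb1-mutated and the other tumors by edgeR, where 3.31% of all genes were called and 20.4% had an unadjusted p under 0.05. By DESeq2 it was 1, Cry1, where 9.26% of all genes were called. The difference of Cry1 was -1.79 (edgeR, adjusted p = 0.0805, SE 0.47). Cry1 was at 0.686 and 0.309 of the own liver in T-HCC662 and T-HCC663, and 1.94-fold higher in T-HCC941, 1.43-fold in T-HCA992, 2.22-fold in TCi-HCC981, and 1.1-fold in TCi-HCA984. Opposite directions in every tumor of the 2 classes were found for 9.23% of all genes tested. Unlike the levels of the 5 genes above, those of Cry1 overlapped between the livers of the classes (4.5 and 5.45 CPM against 4.01 to 20.9 CPM). In edgeR the adjusted p of Cry1 lay between 0.0789 and 0.337 with each mouse left out. Summed hepatocyte markers moved with the classes as well, at 0.748 and 0.421 of the own liver in T-HCC662 and T-HCC663 and 1.67-fold to 2.65-fold higher in the other 4, and their part in the difference was not tested.

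Of 15 further regulators of the clock, 1 rose and 4 fell in tumors against own livers, against 8.65% and 6.87% of all genes tested, with a median log2 fold change of -0.29. Csnk1e, a casein kinase that marks PER proteins for degradation, was at 10.9, 10.8, 8.87, 11.8, 11.7, and 8.38 CPM in the livers and at 31.2, 19.6, 25.3, 18.8, 26.3, and 16.8 CPM in the tumors. It was higher in 6 of 6 tumors with no overlap of the groups, which was true of 4.93% of all genes, and its fitted change was 1.12 (adjusted p = 0.00573, SE 0.16). It passed the threshold in all 10 alternatives. Its exons share 267 bases with the antisense gene Gm16059, as those of Tef share 193 with Gm17597, those of Bhlhe41 share 1280 with Gm43909, and those of Nr1d1 share 263 with Thra, each on the opposite strand.

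The 4 regulators that fell were Ciart, Bhlhe41, Nfil3, and Hlf. Ciart, a repressor of the activating dimer, was at 26.3, 43.1, 4.4, 1.76, 1.56, and 3.52 CPM in the livers and at 11.3, 10.3, 1.11, 0.537, 0.305, and 3.27 CPM in the tumors, lower in 6 of 6 (log2 fold change -1.53, adjusted p = 0.016, SE 0.30). Bhlhe41 (DEC2), which competes at E-boxes, changed most, by -2.22 (adjusted p = 0.0312, SE 0.54), from 1.29 to 30.4 CPM in the livers to 0.609 to 4.43 CPM in the tumors, but was not lower in TCi-HCA984 (1.66 against 1.29 CPM). Nfil3, which opposes DBP and TEF at D-boxes, fell by 0.70 on the log2 scale (adjusted p = 0.0286, SE 0.17), and Hlf, the third PAR bZIP factor, fell by 0.94 (adjusted p = 0.0247, SE 0.21).

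The REV-ERB genes did not pass, with -0.95 (adjusted p = 0.0578, SE 0.29) for Nr1d1 and -0.56 (adjusted p = 0.213, SE 0.29) for Nr1d2. Without the mouse as a block, the calls of Ciart, Hlf, and Nfil3 were lost (adjusted p = 0.348, 0.162, and 0.467), and those of Bhlhe41 and Csnk1e were not (0.0369 and 0.00254). With 1 mouse left out in turn, that of Ciart was lost without the mouse of T-HCC941 or T-HCA992, that of Hlf without these or that of TCi-HCC981, that of Bhlhe41 whichever p21+/Tert mouse was left out, and that of Nfil3 in every case except without the mouse of TCi-HCC981. Of 8 clock output genes (Usp2, Noct, Nampt, Wee1, Tsc22d3, Por, Lpin1, and Cyp7a1), 0 passed the threshold, with 0 higher and 0 lower and a median of -0.69. Noct, a deadenylase with a strong daily rhythm, is listed as Ccrn4l, and this gene ranged from 8.35 to 1291 CPM in the tumors and from 288 to 1134 CPM in the livers (log2 fold change -1.98, adjusted p = 0.116, SE 0.76).

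Levels of whole chromosomes were set beside the genes they hold. On chromosome 15, which holds Tef, the median difference of 615 genes from the own liver on log2(CPM + 1) was 0.47 in T-HCC662 and 0.31 in TCi-HCC981, tumors in which Tef itself was at -0.50 and -1.72. On chromosome 1, which holds Npas2 and Per2, the median of 880 genes was 0.34 in T-HCC941 and 0.38 in TCi-HCC981 and between -0.01 and 0.03 in the other 4 tumors. Npas2 differed by 2.62 and 1.52 in the first pair and by 0.26 to 1.47 in the others. On chromosome 4, which holds Per3, the median was -0.26 in T-HCC662 and -0.15 in TCi-HCC981, where Per3 was at -1.41 and -1.44. In T-HCC663 and T-HCC941 Per3 was at -1.38 and -1.27, with medians of -0.08 and -0.12. In T-HCA992 and TCi-HCA984 it was at 0.46 and 0.50, with medians of 0.05 and -0.04.

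Markers of other cell types were read in the same libraries. Of the lists examined, 1 of 6 macrophage, 1 of 5 endothelial, 1 of 5 stellate, 0 of 5 bile duct, 0 of 5 T cell, 0 of 4 B cell, and 0 of 6 hepatocyte markers were called over the 6 mice. The summed level was 125 to 1250 CPM in livers and 167 to 837 CPM in tumors for macrophages, 43.1 to 114 and 48.9 to 212 for endothelial cells, 43 to 189 and 14.4 to 178 for stellate cells, 50.4 to 135 and 17.7 to 1063 for bile duct cells, 0.843 to 10.4 and 1.84 to 25.1 for T cells, and 0.694 to 40.5 and 1.49 to 17.6 for B cells. None of these markers was at 0 in every library, and their part in the differences of the clock genes was not tested.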

How the data were processed

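Poly(A) RNA of 12 tissue samples was sequenced by the authors as paired ends, filtered on base quality, aligned to mm10 with an added mCherry sequence by Subread, and counted per gene with featureCounts 1.6.4. The deposited values are whole-number counts without normalization. The authors tested with DESeq2 after a batch correction by sequencing run. Which run a sample belonged to, the annotation release, the strand setting, and what was done with multiply aligned reads were not given in the sources used here.

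Counts were scaled and tested with edgeR 4.0.16 (TMM, filterByExpr, quasi-likelihood F test, Benjamini-Hochberg adjustment over all genes tested) in R 4.3.3. The mouse was a block, because a tumor and its liver come from 1 animal. As a check, the deviation of each tumor from its group was correlated over genes with that of its liver. This gave an r of 0.176, 0.0479, 0.0397, 0.424, 0.532, and 0.532 (in the order of the report). It was the highest among the 6 livers for 4 mice but not for those of T-HCC663 and T-HCC941. In the p21+/TertCi groups of 2 mice the deviations mirror each other, so their equal r is 1 result and not 2. Alternatives were DESeq2 1.42.0, scaling by RLE, no filter beyond 1 count, no block, each mouse left out, the libraries of 1 genotype, and, for correlations, a pseudocount of 0.1 CPM in place of 1. Correlations were tested by exact permutation in Python 3.11.15. Intervals of folds are exact binomial, at 95%.

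The named genes are the clock genes, those of the regulator and output lists past the threshold with Nr1d1, Nr1d2, Nfil3, Hlf, and Ciart, and the 5 genes most like Arntl and Dbp. Noct was added after its values were seen. One gene of the regulator list is not reported here. The members and lists were chosen with earlier results of these data known. Gene positions are from GENCODE vM21 (GRCm38, the mm10 build), and 23983 symbols matched 1 position. In data simulated from these libraries with 200 genes changed by 2 on the log2 scale, edgeR recovered 156 over all 6 mice, 119 in p21+/Tert mice, 52 in p21+/TertCi mice, and 0 in each of the comparisons of 2 effects. The simulated spread was that of the fit giving all tumors the same effect. In the real data 3.31% of genes were called for the Ctnnb1 classes. The simulation thus gives no exact power for the comparisons within or between groups. The p-values measure only the spread between these mice.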

Additional observations from a re-analysis of the deposited data

Results flagged for a closer look

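In the non-tumoral livers of p21+/Tert mice, the T-HCA992 liver lay far from the other 3 for 3 clock genes, with 27.4 CPM for Arntl, 11.8 CPM for Npas2, and 20.9 CPM for Cry1, where the others held 0.929 to 2.78, 0 to 0.694, and 4.01 to 5.45 CPM. With 30 sets of 4 or 6 values examined by Dixon's test, chance alone flags about 1 in 20, and the 3 genes were measured in the same library. Those other 3 livers carry labels of another form than the T-HCA992 liver. The p21+/TertCi livers also lay above them, at 13.7 and 9.66 CPM for Arntl, 4.73 and 1.09 CPM for Npas2, and 7.01 and 6.49 CPM for Cry1. T-HCA992 itself was at 30.5 CPM for Arntl, 34.5 CPM for Npas2, and 29.9 CPM for Cry1. Cry1 was lower than in the own liver in both Ctnnb1-mutated tumors and higher in the other 4, and the difference of the effects was -1.79 on the log2 scale (SE 0.47, edgeR adjusted p = 0.0805), which passed the threshold only by DESeq2 (adjusted p = 0.0167).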

How the results depend on the processing

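The counts moved with DESeq2, with the removal of the mouse as a block, and with single mice left out. With DESeq2, 3765 genes and 4 clock genes were called over the 6 mice (Npas2, Tef, Cry2, and Dbp), 2727 and 2 in p21+/Tert mice, 740 genes in p21+/TertCi mice, 66 for the difference between genotypes, and 1406 genes and 1 clock gene (Cry1) for the Ctnnb1 classes. Without the replicate block, 0 clock genes were called over the 6 mice or in p21+/Tert mice, where 1674 and 986 genes were, and 192 genes for the Ctnnb1 classes. The log2 fold change then turned to 0.10 for Per1 over the 6 mice, to -0.03, 0.12, and 0.28 for Clock, Per1, and Cry1 in p21+/Tert mice, to 0.07, 0.05, 0.13, and 0.23 for Per1, Per2, Per3, and Dbp in p21+/TertCi mice, to -0.39 for the genotype difference of Arntl, and to 0.12 for the class difference of Npas2. None of these was called in either fit. In the fit of p21+/Tert libraries alone 0 clock genes and 962 genes in all were called, and in that of p21+/TertCi libraries alone 504 genes. With each mouse left out, 916 to 2033 genes and 1 to 4 clock genes were called over the 6 mice, 459 to 929 and 0 in p21+/Tert mice, 0 to 3 genes in p21+/TertCi mice, and 57 to 463 for the Ctnnb1 classes. The count of genes fell most without the T-HCC941 mouse over the 6 mice and in p21+/Tert mice, and without the T-HCC662 mouse for the classes. Signs turned for Clock (-0.11 to 0.06) and Cry1 (-0.09 to 0.47) over the 6 mice, and for Clock (-0.08 to 0.19), Per1 (-0.36 to 0.17), and Cry1 (-0.53 to 0.33) in p21+/Tert mice. In p21+/TertCi mice, where leaving out 1 mouse leaves 1 pair, they turned for Arntl (-0.02 to 1.31), Per1 (-0.91 to 0.16), Per2 (-0.33 to 0.17), Per3 (-1.61 to 0.51), Cry2 (-1.95 to 0.43), and Dbp (-2.38 to 0.96). For the genotype difference they turned for Arntl (-0.46 to 0.83), Npas2 (-0.15 to 1.14), Per1 (-0.22 to 0.89), Per3 (-1.47 to 0.69), Cry2 (-1.23 to 1.19), Dbp (-2.17 to 1.22), and Tef (-1.10 to 0.66), and for the class difference for Arntl (-0.64 to 0.01), Npas2 (-0.99 to 3.70), Per1 (-0.01 to 1.23), Cry2 (-0.55 to 0.27), and Dbp (-0.64 to 0.55). RLE size factors and the filter on low counts changed no call of a clock gene, and another pseudocount or RLE left the 5 correlations called. The cause of these shifts was not tested. Without the T-HCC662 mouse, which leaves the 5 pairs named by the labels, Npas2 (2.06, adjusted p = 0.0163) and Tef (-1.14, adjusted p = 0.0384) were called. Depth limits Npas2 and Arntl, which rest on 0 to 20 counts in the livers of T-HCC662 and T-HCC663.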
